A study of Mus musculus with 21 samples.

Results

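The serpin genes *Serpina1a*, *Serpina1b*, *Serpina1c*, *Serpina1d*, *Serpina1e*, *Serpina1f*, *Serpina6* and *Serpina10* were followed in podocyte fractions of young and middle-aged mice. These 8 genes, of 27179 in the count tables, were chosen by a measured value: *Serpina1f* had the largest rise with MCC950, and the other 7 are its neighbours and relatives. The comparison of MCC950 with saline is therefore a description for all of them, and *Serpina1f* is a description in every comparison. Of the 8 genes, 7 passed the filter on low counts (16377 genes in all), and *Serpina6* did not. RNA came from 21 male wildtype C57BL/6J mice, and each library was made from the fraction of an individual mouse that magnetic beads with antibodies to nephrin held back from digested kidney cortex. The 6 young mice were 4 months old and received no treatment. The 7 saline-treated mice and the 8 mice treated with MCC950, an inhibitor of the NLRP3 inflammasome given at 10 mg/kg by intraperitoneal injection, were 19.5 months old after 6 weeks of treatment that began at 18 months. Age and injection went together in the comparison with young mice and cannot be told apart.

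Serpins of clade A are secreted proteins that trap a protease by offering a reactive loop, which the protease cuts and then cannot leave. Mice carry several close copies of the gene for alpha1-antitrypsin, the inhibitor of neutrophil elastase, where humans carry a single gene. The liver is their main source, and protein that passes the glomerular filter is taken up in the proximal tubule by megalin and cubilin. *Serpina10* encodes the protein Z-dependent inhibitor of coagulation factor X, and *Serpina6* encodes corticosteroid-binding globulin, which carries glucocorticoids in plasma and is not an inhibitor. *Serpina1f* is a distant relative of the antitrypsin copies and has been described mainly in the epididymis.

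All 8 genes lie on the minus strand of chromosome 12 of GRCm38 (mm10), from 103616675 (the end of *Serpina10*) to 103956897 (the start of *Serpina1e*). *Serpina1f* (Entrez Gene 68348) lies from 103688044 to 103695529, between *Serpina6* (103646630 to 103657218) and *Serpina1b* (103728156 to 103738189). The coding sequences of *Serpina1a* to *Serpina1e* were 96.3 to 98.5% identical to each other in GENCODE transcripts, whereas *Serpina1f* was 56.6 to 57.7% identical to them. Of all 100-base windows of the longest coding transcript, 58.5% of *Serpina1c*, 47.4% of *Serpina1a*, 26.3% of *Serpina1d*, 19.2% of *Serpina1b* and 14.8% of *Serpina1e* occur unchanged in another of these genes, so reads can be split between the copies with uncertainty. In *Serpina1f*, *Serpina6* and *Serpina10* no window was shared. Several unprocessed pseudogenes also lie in the cluster, and the antisense gene B430119L08Rik overlaps *Serpina1c*, whose reads cannot be told apart from it because the strand setting is not given in the sources used here.

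The same contrast holds before the gene starts. RefSeq promoters (GRCm38.p6, 250 bases before to 50 after each start) matched 6 of the 8 genes, *Serpina1a* to *Serpina1f*. The stretches below are shown because they separate *Serpina1f* from the 5 antitrypsin copies. Each is given 5′ to 3′ on the minus strand and ends before the annotated start, with the run of letters GTTAAT in capitals.
*Serpina1a*, chr12:103863620-103863700: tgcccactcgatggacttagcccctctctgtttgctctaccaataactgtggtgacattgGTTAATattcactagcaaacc
*Serpina1b*, chr12:103738190-103738275: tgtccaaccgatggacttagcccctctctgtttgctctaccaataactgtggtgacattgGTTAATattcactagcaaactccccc
*Serpina1c*, chr12:103904951-103905037: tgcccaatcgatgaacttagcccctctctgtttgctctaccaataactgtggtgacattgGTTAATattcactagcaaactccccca
*Serpina1d*, chr12:103773634-103773709: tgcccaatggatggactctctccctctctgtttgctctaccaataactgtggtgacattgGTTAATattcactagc
*Serpina1e*, chr12:103956946-103957035: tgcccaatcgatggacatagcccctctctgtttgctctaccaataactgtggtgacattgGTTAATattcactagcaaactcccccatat
*Serpina1f*, chr12:103695530-103695779: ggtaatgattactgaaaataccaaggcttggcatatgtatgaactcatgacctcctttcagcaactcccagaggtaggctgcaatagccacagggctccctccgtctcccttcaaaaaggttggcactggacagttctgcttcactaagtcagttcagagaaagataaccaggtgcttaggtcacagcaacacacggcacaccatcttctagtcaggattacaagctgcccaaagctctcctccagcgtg
Over the 76 bases that the 5 copies share from 60 bases before GTTAAT, 66 bases were the same in all 5. GTTAAT was found once in each of the 5 promoters and on neither strand of that of *Serpina1f*, and 7.10% of the 32851 promoters in the table hold it. The CAAT box, searched as CCAAT on both strands, was likewise in all 5 copies and not in *Serpina1f* (37.4% of all promoters), and in each copy its match on the other strand overlaps that run. The core of the glucocorticoid receptor motif, searched as TGTTCT on both strands, was also in all 5 copies and not in *Serpina1f* (19.0% of all promoters). The AP1 motif TGACTCA was in *Serpina1a* to *Serpina1d* and not in *Serpina1e* or *Serpina1f* (5.2% of all promoters). A match is a run of letters in this window and says nothing of binding.

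The libraries held 27375870 to 36827823 counts in young, 45772937 to 84876399 in saline and 35440472 to 58247271 in MCC950 mice, so that the shallowest saline library exceeded the deepest young library. Mitochondrial genes took a median of 71.1%, 68.6% and 57.5% of the counts. Podocyte markers (15 genes, among them *Nphs1*, which encodes nephrin) were present in every library, at a summed 846 to 1821 CPM (counts per 1000000) in young, 336 to 630 in saline and 439 to 727 in MCC950 mice. Proximal tubule markers (15 genes) were more abundant, at 2413 to 8812, 2413 to 5931 and 4015 to 10920 CPM. Of these, 10 of 15 were higher and 0 lower with MCC950 than with saline, where 11.9% of all genes were higher and 4.86% lower. MCC950 replicates 1 and 5 and saline replicates 5 and 6 held the highest levels of *Serpina1a* within their groups. MCC950 replicates 1 and 5 also had the highest proximal tubule sums of their group (10920 and 9174 CPM) and the lowest podocyte sums (442 and 439 CPM). Saline replicate 5 had the lowest podocyte sum of its group (336 CPM), whereas saline replicate 6 (530 CPM) lay above the group median (518 CPM). For *Serpina1f* and the antitrypsin copies, differences of MCC950 from saline and of saline from young are also given without some of these libraries. Fold changes of MCC950 against young and of genes in other lists, and the shares and correlations below, are given only with them.

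*Serpina1f* was lowest in young, higher in saline-treated and highest in MCC950-treated mice. Its level was 0.232 to 0.948 CPM in the 6 young libraries (median 0.486), 0.309 to 2.60 CPM in the 7 saline libraries (median 1.38) and 5.75 to 18.1 CPM in the 8 MCC950 libraries (median 7.0). These levels rest on 7 to 28, 16 to 214 and 310 to 1229 counts in a library. No MCC950 library overlapped a saline library, and 6 of 7 saline libraries lay above the highest young library, with saline replicate 4 inside the young range. MCC950 replicates 1 and 5 stood at 18.1 and 15.9 CPM, while the other 6 lay between 5.75 and 7.37 CPM.

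The fitted log2 fold change of *Serpina1f* was 2.73 for MCC950 against saline (standard error 0.36, 6.65-fold), 1.39 for saline against young (standard error 0.45, 2.62-fold) and 4.13 for MCC950 against young (standard error 0.45). By the criterion that singled it out (significance at an adjusted p of 0.05, a mean level of 1 log2 CPM or more, and groups without overlap), 160 genes rose with MCC950, and the next gene after *Serpina1f* was *Mettl7a2* at 1.81. Without MCC950 replicates 1 and 5, a choice made after seeing the data, the rise over saline was 2.23, and without saline replicates 5 and 6 it was 3.11. Without saline replicates 5 and 6 the difference of saline from young was 0.97. In these bulk fractions more cells that express a gene and more RNA in each cell cannot be told apart.

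**Figure D1:**
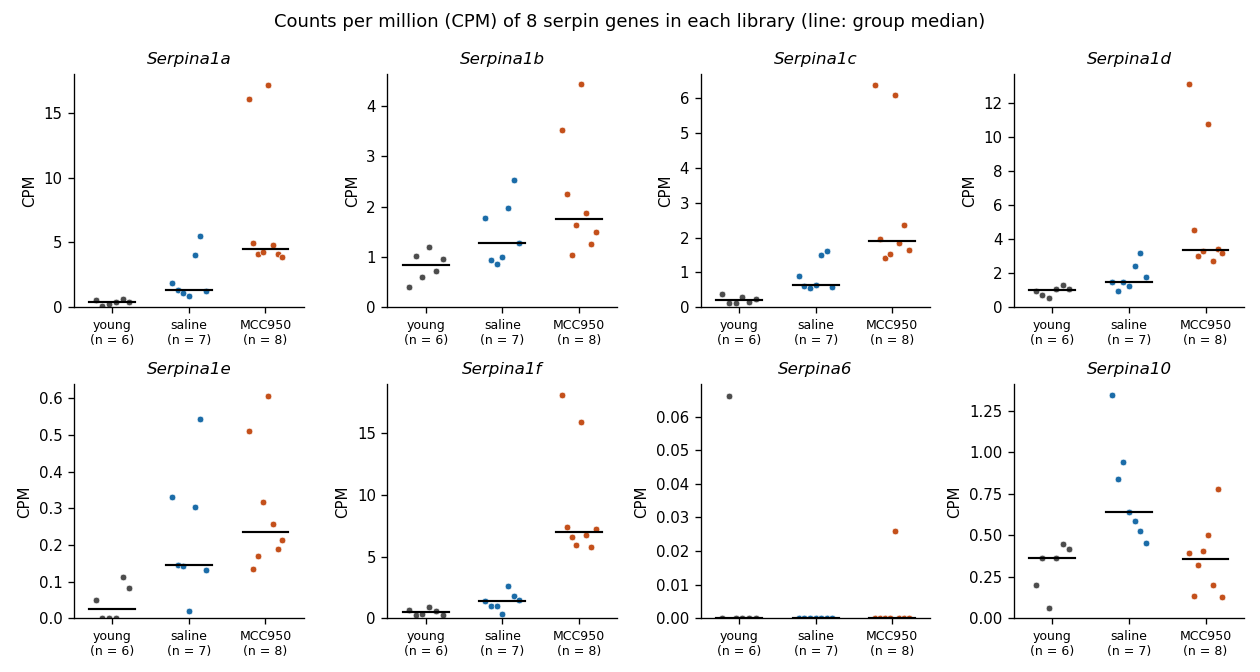
Level of each gene in CPM (y axis, linear from 0, own scale in each panel) in the 21 libraries (points), by group (x axis), with the group median as a line. For *Serpina1f* the MCC950 libraries sit at 5.75 to 18.1 CPM, above all saline libraries, while *Serpina10* is highest in saline libraries and *Serpina6* is at 0 in all but 2 libraries.

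Among the antitrypsin copies, *Serpina1a*, *Serpina1c* and *Serpina1e* were higher in saline-treated middle-aged mice than in young mice, by edgeR's quasi-likelihood test with Benjamini-Hochberg adjustment over all genes. *Serpina1a* was at 0.133 to 0.618 CPM in young (median 0.409) and at 0.890 to 5.51 CPM in saline libraries (median 1.32), with no overlap and a log2 difference of 2.55 (standard error 0.58) at an adjusted p of 0.00318. *Serpina1c* was at 0.129 to 0.373 CPM (median 0.210) and at 0.566 to 1.61 CPM (median 0.638), also without overlap, and its log2 fold change was 2.00 (standard error 0.49, adjusted p = 0.00528). The age difference of these copies thus came with every saline library above every young library. Without saline replicates 5 and 6 it was 1.70 for *Serpina1a* (adjusted p = 0.0194) and 1.51 for *Serpina1c* (adjusted p = 0.0292). *Serpina1e* was barely expressed: 3 of 6 young libraries held 0 counts and the other 3 held 6 together, against 1 to 38 counts in saline libraries. Its log2 fold change was 2.65 (standard error 0.77, adjusted p = 0.0155) and became 2.03 (adjusted p = 0.0727) without saline replicates 5 and 6. *Serpina1e* did not pass the filter on low counts when only saline and young libraries were fitted. It entered this test through the MCC950 libraries.

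*Serpina1b* and *Serpina1d*, the copies with the highest counts in young mice, did not pass the test with age. *Serpina1b* went from a median of 0.846 CPM (0.398 to 1.20) to 1.29 CPM (0.872 to 2.53), a log2 difference of 0.87 (standard error 0.36) at an adjusted p of 0.0835. *Serpina1d* went from 1.02 CPM (0.581 to 1.35) to 1.52 CPM (0.952 to 3.18), a log2 difference of 0.93 (standard error 0.41) at an adjusted p of 0.103. The ranges of young and saline libraries overlapped for both. Without MCC950 replicates 1 and 5, which enter this fit through the shared estimate of spread, *Serpina1b* (adjusted p = 0.0337) and *Serpina1d* (adjusted p = 0.0122) came under the threshold. Without saline replicates 5 and 6 the log2 differences shrank to 0.53 for *Serpina1b* (adjusted p = 0.308) and 0.55 for *Serpina1d* (adjusted p = 0.360).

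Counting *Serpina10* below, 4 of the 6 tested genes other than *Serpina1f* were higher with age and 0 lower, where 12.2% of all genes tested were higher and 12.4% lower. With only these 2 groups fitted, *Serpina1e* was not tested and 4 of 5 were higher, beside 1994 of 15780 genes in all. *Serpina1d* was then among the 4 (edgeR adjusted p = 0.0258). In 3 of these 6 the saline libraries lay above all young libraries, as in 4.51% of all genes. The median log2 fold change of the 6 genes was 1.67, beside 0.02 over all genes. The antitrypsin copies among them are nearly identical and share reads, so these counts are not of separate genes.

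With MCC950, *Serpina1a*, *Serpina1c* and *Serpina1d* had fitted levels about 3-fold those of saline mice, and *Serpina1b* and *Serpina1e* differed less. *Serpina1a* was at 3.92 to 17.2 CPM (median 4.54) in MCC950 libraries, a log2 difference of 1.68 from saline (standard error 0.44). *Serpina1c* was at 1.42 to 6.38 CPM (median 1.89), a log2 difference of 1.64 (standard error 0.37). *Serpina1d* was at 2.75 to 13.1 CPM (median 3.37), a log2 difference of 1.61 (standard error 0.35). In *Serpina1c* and *Serpina1d* 6 of 8 MCC950 libraries exceeded all saline libraries, and in *Serpina1a* 2 of 8 did, so that none of the 3 separated the groups as *Serpina1f* did. *Serpina1b*, at 1.04 to 4.44 CPM (median 1.75), differed by 0.55 (standard error 0.31). *Serpina1e*, at 0.133 to 0.607 CPM (median 0.235), differed by 0.35 (standard error 0.47).

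These differences moved with the libraries included. Without MCC950 replicates 1 and 5 the log2 difference from saline was 0.89 for *Serpina1a*, 0.92 for *Serpina1c*, 0.86 for *Serpina1d*, 0.06 for *Serpina1b* and -0.16 for *Serpina1e*. Without saline replicates 5 and 6 it was 2.47 for *Serpina1a*, 2.09 for *Serpina1c*, 1.94 for *Serpina1d*, 0.85 for *Serpina1b* and 0.93 for *Serpina1e*. Of the 7 tested genes, 4 were called higher with MCC950 than with saline (*Serpina1a*, *Serpina1c*, *Serpina1d* and *Serpina1f*) and 1 lower (*Serpina10*), where 11.9% of all genes were called higher and 4.86% lower. Without MCC950 replicates 1 and 5 the counts were 3 higher and 0 lower, and over all genes the higher calls went from 1957 to 470 and the lower calls from 796 to 494. The libraries did not overlap in 1 of 7, *Serpina1f*, beside 1.15% of all genes. Since this contrast chose the genes, nothing is read from these counts.

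Compared with the same young libraries, all 5 copies were higher with MCC950. The log2 fold change was 4.23 for *Serpina1a* (standard error 0.58, adjusted p = 2.16e-05), 3.64 for *Serpina1c* (standard error 0.48, adjusted p = 1.46e-05) and 2.54 for *Serpina1d* (standard error 0.41, adjusted p = 9.7e-05). It was 1.43 for *Serpina1b* (standard error 0.36, adjusted p = 0.00377) and 3.0 for *Serpina1e* (standard error 0.75). All 8 MCC950 libraries lay above all young libraries in each copy but *Serpina1b*, where 7 of 8 did. With *Serpina10*, which was not called, 5 of 6 genes were higher and 0 lower, where 21.8% of all genes were higher and 16.5% lower. In 4 of these 6 genes the groups did not overlap, beside 3.28% of all genes. The comparison uses the MCC950 libraries that chose *Serpina1f*. *Serpina1e* passed the filter on low counts through these same libraries, so its values here are a description, also where it is counted. The copies share reads, so these counts are not of separate genes.

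**Figure D2:**
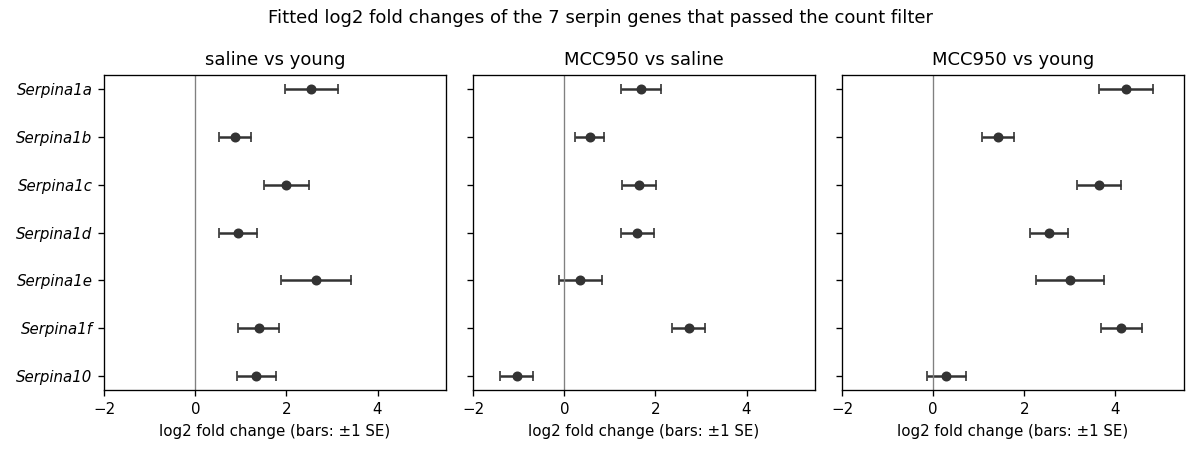
Fitted log2 fold change (x axis) of the 7 tested genes (y axis) in the 3 comparisons, with bars of 1 standard error on each side. *Serpina1f* stands at 2.73 for MCC950 against saline, above *Serpina1a* at 1.68, while in saline against young it stands at 1.39, below *Serpina1a* at 2.55, and *Serpina10* lies at -1.04 for MCC950 against saline.

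Levels of different genes were compared as CPM per kilobase of all annotated exons, a length that for *Serpina1f* is 3185 bases, against 1569 in its longest coding transcript. In young libraries the order of the medians was *Serpina1d* (0.729 CPM per kilobase), *Serpina1b* (0.350), *Serpina1a* (0.224), *Serpina1c* (0.154), *Serpina1f* (0.153), *Serpina10* (0.104) and *Serpina1e* (0.0154), and each overlapped the next in its range. In MCC950 libraries the order was *Serpina1a* (2.48 CPM per kilobase), *Serpina1d* (2.42), *Serpina1f* (2.20), *Serpina1c* (1.39), *Serpina1b* (0.725), *Serpina1e* (0.145) and *Serpina10* (0.102). There the lowest *Serpina1b* level (0.430) lay above the highest *Serpina1e* level (0.376), and the other neighbours overlapped. By this length *Serpina1f* stood below 4 of the copies in young and saline libraries, where its median was 0.153 and 0.435 CPM per kilobase, and below 2 of them after MCC950. This order rests on the length used. Per kilobase of the longest coding transcript, the median of *Serpina1f* was 0.310 in young (the third of 7), 0.882 in saline (the second of 7) and 4.46 in MCC950 libraries, where it was above *Serpina1a* (2.87) and all other copies.

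The makeup of the antitrypsin transcripts changed along with their sum. Summed over *Serpina1a* to *Serpina1e*, the level was 1.61 to 2.99 CPM in young (median 2.56), 3.79 to 13.4 CPM in saline (median 5.04) and 9.73 to 39.6 CPM in MCC950 libraries (median 11.4), and the sum fitted as a single gene had log2 differences of 1.47 with age and 1.44 with MCC950. The share of *Serpina1a* in the summed counts was 16.2 ± 6.03% (SD, n = 6) in young, 31.1 ± 7.04% (SD, n = 7) in saline and 39.6 ± 2.88% (SD, n = 8) in MCC950 libraries. It was higher in saline than in young libraries by 14.9 percentage points (exact two-sided permutation test, p = 0.00233, adjusted p = 0.00583 over 10 comparisons), and 6 of 7 saline libraries lay above the young range. Saline replicates 5 and 6 had the highest shares of their group (39.4 and 41.2%), and no share was tested without them. *Serpina1b* took the opposite course, with 34.2 ± 11.9% in young, 23.2 ± 3.60% in saline and 12.9 ± 2.80% in MCC950 libraries. Its share was lower in MCC950 than in young libraries in 8 of 8 (exact permutation test, two-sided, p = 0.000666, which is the lowest possible with these numbers, adjusted p = 0.00222), and for saline against young the adjusted p was 0.0539.

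*Serpina1d* and *Serpina1c* also changed their part. The share of *Serpina1d* was 38.9 ± 3.64% in young and 28.4 ± 5.84% in saline libraries (exact two-sided permutation test, adjusted p = 0.00699), and 29.9 ± 2.96% after MCC950. The share of *Serpina1c* was 9.18 ± 3.72% in young and 14.0 ± 1.80% in saline libraries (exact two-sided permutation test, adjusted p = 0.0216), and 15.8 ± 2.15% after MCC950. Young shares rest on 50 to 93 summed counts a library, against 177 to 937 in saline and 459 to 3027 in MCC950 libraries, and all depend on how shared reads were assigned.

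**Figure D3:**
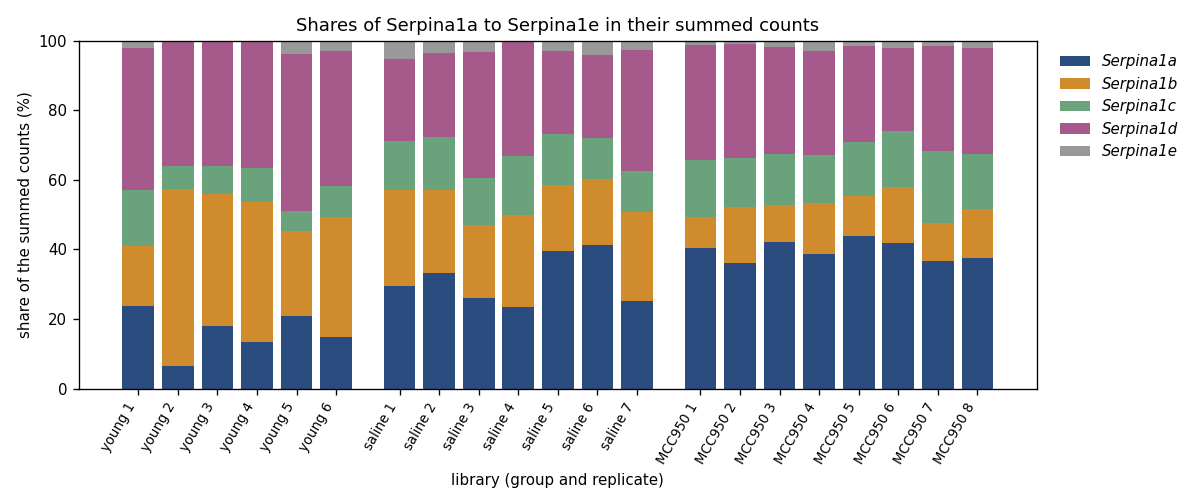
Share of each antitrypsin copy in the summed counts of *Serpina1a* to *Serpina1e* (y axis, percent) in each of the 21 libraries (x axis, by group and replicate). The mean share of *Serpina1a* is 16.2% in young, 31.1% in saline and 39.6% in MCC950 libraries, and that of *Serpina1b* 34.2%, 23.2% and 12.9%.

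The proportion of *Serpina1f* to the copies overlapped between young and saline mice and was higher after MCC950. *Serpina1f* counts were 10.4 to 31.7% of the summed counts of *Serpina1a* to *Serpina1e* in young (median 21.4%) and 8.16 to 29.3% in saline libraries (median 23.7%). In MCC950 libraries they were 40.6 to 69.5% (median 53.1%), above every other library. MCC950 replicates 1 and 5, with the highest *Serpina1f* levels, had the lowest of these percentages in their group (45.6% and 40.6%).

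Proximal tubule markers were higher with MCC950 than with saline, as most of these genes were. With age 0 of 15 were called higher and 1 lower, beside 12.2% and 12.4% of all genes. The summed median of these markers was 4249, 4052 and 7225 CPM in young, saline and MCC950 libraries. Per 100000 marker counts, *Serpina1f* had 5.04 to 39.3 counts in young, 12.8 to 47.8 in saline and 78.6 to 173 in MCC950 libraries, the last above all others. *Serpina1f* was chosen for MCC950 and saline levels without overlap, so this is a description. The part of tubule cells in the differences of the serpins was not tested. *Serpina1a* to *Serpina1e* together had 94.1 to 330 in saline and 116.3 to 426 in MCC950 libraries, which overlapped. With the mean log2 CPM of these markers as a covariate, the log2 difference of MCC950 from saline was 1.86 for *Serpina1f*, 0.41 for *Serpina1a*, 0.75 for *Serpina1c*, 0.80 for *Serpina1d* and -0.83 for *Serpina1e*. With the podocyte markers as a covariate, 0 of the 6 genes were called with age, but of all 16377 genes only 13 were higher and 1 lower. The age difference was then 0.29 for *Serpina1a*, -0.0045 for *Serpina1c* and -0.55 for *Serpina1f*. The podocyte marker sum of every saline library (at most 630 CPM) lay below that of every young library (at least 846 CPM), so that it and age cannot be told apart.

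**Figure D4:**
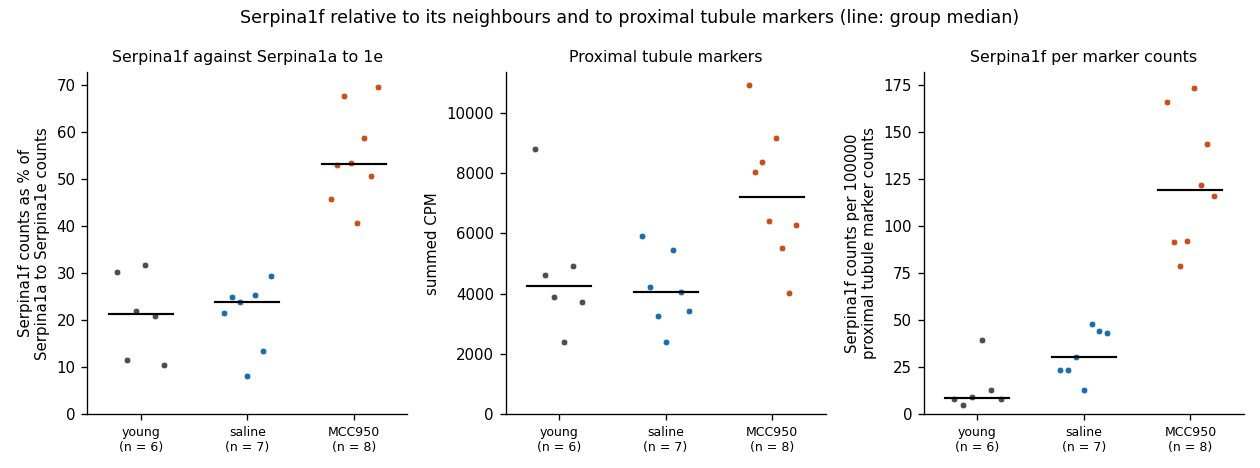
*Serpina1f* counts as a percentage of the counts of *Serpina1a* to *Serpina1e* (left), summed CPM of 15 proximal tubule markers (middle) and *Serpina1f* counts per 100000 proximal tubule marker counts (right), by group, with points for libraries and lines for medians. MCC950 libraries sit at 40.6 to 69.5% on the left and 78.6 to 173 on the right, above all others, while in the middle they overlap both other groups.

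*Serpina10* followed another course: it was higher with age and not higher with MCC950. It was at 0.0646 to 0.449 CPM in young (median 0.365), 0.455 to 1.35 CPM in saline (median 0.638) and 0.128 to 0.782 CPM in MCC950 libraries (median 0.356), on 2 to 69 counts a library. All saline libraries lay above all young libraries, by 1.33 on the log2 scale (standard error 0.43) at an adjusted p of 0.0270. The call was lost when young replicate 1, young replicate 3 or saline replicate 1 was omitted, with adjusted p-values of 0.0634, 0.0699 and 0.0594. Against saline, the MCC950 difference was -1.04 (standard error 0.36), with 6 of 8 libraries below the lowest saline library. This lower call ended, to 0 genes, without any 1 of 15 libraries: young replicates 2 and 4, saline replicates 1 to 6 and MCC950 replicates 1 to 6 and 8. Between MCC950 and young mice the log2 fold change was 0.29 (standard error 0.43, adjusted p = 0.619). *F10*, which encodes coagulation factor X, a target of the Serpina10 protein, was at 0.161 to 0.786 CPM in young and 2.52 to 8.42 CPM in saline libraries, a rise of 3.11 on the log2 scale (adjusted p = 0.000132), and its difference with MCC950 was -0.57 (adjusted p = 0.303).

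*Serpina6* was all but undetected, with 2 counts in 1 young library, 2 counts in 1 MCC950 library and 0 in the other 19. A count of 0 allows a level of up to 0.0707 CPM in a saline library (3 counts in a library, counting error only). Of 9 genes of glucocorticoid handling, 3 were lower and 0 higher with age (*Sgk1*, *Hsd11b2* and *Nr3c2*), where 12.4% of all genes were lower. *Hsd11b2*, the enzyme that inactivates glucocorticoids, fell by a log2 of 0.82 (adjusted p = 0.00932). *Nr3c2*, the mineralocorticoid receptor, fell by 0.57 with age (adjusted p = 0.00265) and was the gene of this list called lower with MCC950, where it fell by 0.45 (adjusted p = 0.0149). Of all genes 4.86% were called lower with MCC950.

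Across the 21 libraries, as deviations from the group means of log2 CPM, the copies and *Serpina1f* varied together and *Serpina10* did not follow them. Pearson's r was 0.89 between *Serpina1a* and *Serpina1c*, 0.81 between *Serpina1a* and *Serpina1f* and 0.49 between *Serpina1b* and *Serpina1e*, the lowest among these 6 genes. *Serpina10* had r from 0.05 (with *Serpina1f*) to 0.31 (with *Serpina1e*). The points share their libraries, the copies share reads, and *Serpina1e* and *Serpina10* are low, so these values are a description. *Serpina1a* stood at 16.0 and 17.2 CPM in MCC950 replicates 1 and 5 (group median 4.54). In saline replicates 5 and 6 it stood at 4.06 and 5.51 CPM (group median 1.32). No r was computed without these libraries, so how far they carry the values was not tested.

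**Figure D5:**
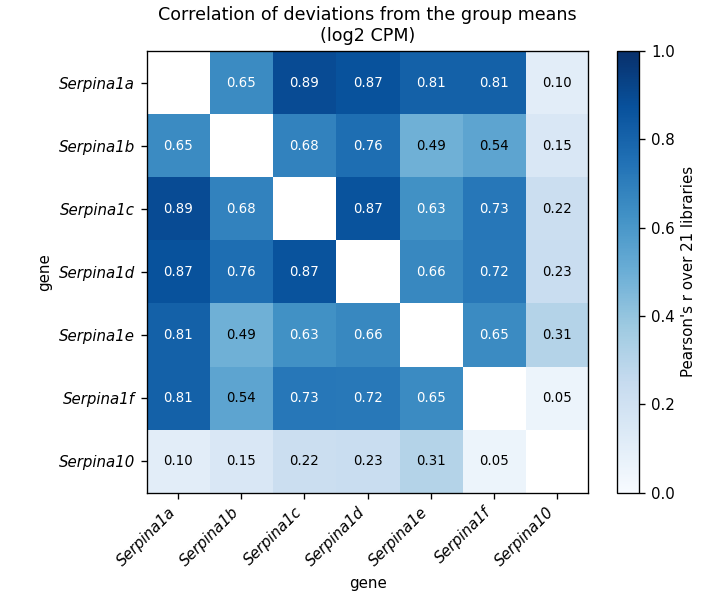
Pearson's r between the tested genes (both axes) over 21 libraries, from log2 CPM as deviations from the group means, with darker squares for higher r. Squares among *Serpina1a* to *Serpina1f* range from 0.49 to 0.89, and those of *Serpina10* from 0.05 to 0.31.

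Among 13573 genes with a mean of at least 1 CPM, the 5 genes most like *Serpina1f* by these deviations were *Clrn3* (r = 0.83), *Slc35e3* (0.82), *Fbp2* (0.80), *Slc22a13* (0.80) and *Apmap* (0.79), beside 0.81 for *Serpina1a*. *Clrn3* was at 3.94 to 11.5 CPM in saline and 13.2 to 27.1 CPM in MCC950 libraries, with no overlap. By plain log2 CPM, which includes the differences between groups, they were *Mettl7a2* (r = 0.96), *Slc22a13* (0.93), *Mpp1* (0.93), *Prelid1* (0.92) and *Hint1* (0.92). *Slc22a13*, an organic anion transporter of the late proximal tubule, was in both lists, with medians of 0.409, 0.955 and 2.94 CPM in young, saline and MCC950 libraries. Of the 8 markers of the late (S3) proximal tubule, it was among 4 called higher with MCC950 than with saline, and 0 were lower. Of all genes 11.9% were called higher and 4.86% lower.

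A list of 11 genes held proteases that serpins of this family inhibit. It also held *Plaur*, the urokinase receptor, and *Proz*, the cofactor protein Z, which are not proteases. The neutrophil proteases had few counts: *Elane*, neutrophil elastase, had 1 count in all 21 libraries together, *Ctsg* 4 and *Prtn3* 99. Others were abundant, such as *Klk1*, tissue kallikrein, at 599 to 1987 CPM and *Plau*, urokinase, at 103 to 190 CPM. Of the 7 listed genes tested, 1 was higher with age (*F10*) and 1 lower (*Klk1*, which fell by 0.67 on the log2 scale, adjusted p = 0.00822). Of all genes, 12.2% were higher and 12.4% lower with age. With MCC950 against saline 0 of the 7 were called, where 11.9% of all genes were higher and 4.86% lower.

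Genes for the uptake and secretion of serpins were called higher with MCC950 than with saline in 6 of 13 cases and lower in 0. Of all genes 11.9% were called higher and 4.86% lower. The list median was 0.24 on the log2 scale beside 0.0028 over all genes. *Lrp2*, which encodes megalin, was at 92.4 to 266 CPM in saline and 183 to 472 CPM in MCC950 libraries, a rise of 0.97 (adjusted p = 0.0160). *Cubn* (cubilin) rose by 0.88 (adjusted p = 0.0367) and *Amn* (amnionless, its partner) by 1.23 (adjusted p = 0.00602). *Hspa5*, an endoplasmic reticulum chaperone, rose by 0.57 (adjusted p = 0.0213). *Lrp2* and *Cubn* are also in the proximal tubule list.

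Of 8 tested transcription factors known from hepatocytes, 1 rose with MCC950 over saline and 0 fell, where 11.9% of all genes rose and 4.86% fell. The count is thus near the share over all genes. The 1 that rose was *Hnf4a*, which is also used in the proximal tubule, at 58.2 to 143 CPM in saline and 141 to 272 CPM in MCC950 libraries (log2 fold change 1.06, adjusted p = 0.0030). Of 13 tested genes for other proteins that hepatocytes secrete, 5 rose and 0 fell with MCC950 over saline, beside the same shares of all genes. *Alb* (albumin) was among the 5, from 0.330 to 0.828 CPM in saline to 1.48 to 3.10 CPM in MCC950 libraries (log2 fold change 1.78, adjusted p = 0.00104). *Fga*, a fibrinogen chain, was at 1.65 to 12.7 CPM (median 3.57) and 6.24 to 34.7 CPM (median 9.20), with a log2 fold change of 1.40 (adjusted p = 0.0262). *Apob* (log2 fold change 1.07, adjusted p = 0.00914), *Fgg* (1.40, adjusted p = 0.0466) and *Ttr* (1.3, adjusted p = 0.0107) were the others that rose. Of the 18 genes listed, 5 did not pass the filter on low counts, and 1 of these, *Ahsg*, was at 0 in all 21 libraries. The part of hepatocyte-type transcripts in the result for the serpins was not tested.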

How the data were processed

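Podocyte fractions of individual mice were sequenced by the authors, who trimmed the reads with Trim Galore, aligned them to mm10 with Bowtie2, which does not place reads across splice junctions, and counted reads per gene with featureCounts. Versions, annotation release, strand setting and handling of multiply mapped reads are not given in the sources used here. The deposited raw counts of 27179 genes in 21 libraries, by Entrez Gene number, were used. The authors' normalized table, which holds 20 of the libraries and lacks saline replicate 6, was not used.

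Samples were grouped by their labels. Library identifiers in the labels fall in separate ranges for each group, and what they stand for is not stated. No 2 libraries of a group agreed within sampling noise (lowest chi-square per degree of freedom 17.7 over 64 pairs). Replicate numbers did not pair the libraries. Names came from RefSeq on GRCm38 for 25275 genes and from GENCODE for 18.

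The quasi-likelihood F test of edgeR 4.0.16 (R 4.3.3) was applied to the counts of all 3 groups in a single fit, with TMM, filterByExpr by group and Benjamini-Hochberg adjustment over 16377 genes, and was tested on simulated data first. CPM values use TMM library sizes. The standard error of a log2 fold change is its size over the square root of F. Exact two-sided permutation tests served for shares (scipy 1.17.1, Python 3.11.15). DESeq2 1.42.0 and 9 other alternatives were tried, and each library was left out in turn. Leaving out MCC950 replicates 1 and 5, or saline replicates 5 and 6, and taking gene lengths from the longest coding transcript were chosen after seeing the data. The 8 genes and the 11 gene lists were chosen with earlier results of these data known. Named beside the 8 genes are, of each list, the 3 most abundant genes and up to 4 more with an adjusted p under 0.05 and over a 2-fold change, and the 5 genes most correlated with *Serpina1f* on each scale, and of these only the ones that bear on a result are printed. Coding identity came from global alignments of GENCODE transcripts (Biopython 1.88). *Elane*, *Ctsg*, *Prtn3* and *Ahsg*, outside that rule, were chosen after their values were seen. The result for 1 gene of the lists is not reported here, though the counts include it.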

Additional observations from a re-analysis of the deposited data

Results flagged for a closer look

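Of 39 sets of values (groups of libraries), 2 held a library far from the others by Dixon's test at 95%, where chance flags about 1 in 20. In young replicate 4, *Serpina1f* had 39.3 counts per 100000 proximal tubule marker counts, against 5.04 to 12.6 in the other 5 young libraries. This library also had the lowest sum of those markers among young libraries (2413 CPM) and the highest *Serpina1f* level (0.948 CPM). In MCC950 replicate 7, *Serpina1c* took 20.6% of the summed counts of *Serpina1a* to *Serpina1e*, against 13.7 to 16.1% in the other 7 MCC950 libraries, and this library also had the highest *Serpina10* level of its group (0.782 CPM).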

How the results depend on the processing

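The members' fold changes kept their direction in all 441 fits with 1 library left out. Leaving out 1 library gave 3 to 4 genes higher with age. For MCC950 against young 5 of 6 were higher and 0 lower, in a set that includes *Serpina1e*. For MCC950 against saline 4 were higher and 0 to 1 lower, with *Serpina1f* at 2.52 to 2.98 on the log2 scale. This set includes *Serpina1f*, which that contrast chose, so its values are a description. Over all genes, higher calls in these fits ran from 1353 to 2270 with age and from 2556 to 3725 for MCC950 against young. For MCC950 against saline they ran from 1008 to 2392, and lower calls from 515 to 1007. The lower call (*Serpina10*) also fell to 0 with no filter on low counts, with the replicate block, with either marker score as a covariate and without MCC950 replicates 1 and 5 or saline replicates 5 and 6, and *Serpina1e* then reversed to -0.16 without the former. Asking for 10 or more counts in each library left 2 of the genes, of which 0 were higher with age, 1 higher and 0 lower for MCC950 against saline, and 2 higher for MCC950 against young. With the proximal tubule score, 1 gene was higher and 0 lower for MCC950 against saline, *Serpina1f* was at 1.86 and *Serpina1e* reversed to -0.83. Over all genes the higher calls then went from 1957 to 366 and the lower calls from 796 to 313. With the podocyte score, which follows age, 0 genes were higher with age or for MCC950 against young. Over all 16377 genes only 13 and 76 were then higher in these comparisons. With age *Serpina1c* then reversed to -0.0045, *Serpina1d* to -0.59 and *Serpina1f* to -0.55, and for MCC950 against young *Serpina10* reversed to -0.24. *Serpina1d* came under the threshold with age when only those groups were fitted (adjusted p = 0.0258) or with the proximal tubule score (adjusted p = 0.0369), and *Serpina1b* lost its call for MCC950 against young with that score (adjusted p = 0.0982). Apart from the effect of construction (fewer genes tested, fewer samples), the cause was not tested.

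The replicate numbers do not pair the libraries: correlations of same-numbered libraries ran from -0.061 to 0.35 (saline and young, best match with its own number in 2 of 6), -0.14 to 0.33 (MCC950 and saline, 2 of 7) and -0.013 to 0.40 (MCC950 and young, 1 of 6). With the replicate block, 4 became 3 genes higher with age (*Serpina10*, adjusted p = 0.0523), and all-gene calls went from 1957 to 2381 higher and 796 to 904 lower with MCC950. Summing *Serpina1a* to *Serpina1e* into 1 row gives no count of genes. Depth limits *Serpina6*, *Serpina1e* and *Serpina10*, with 0 to 2, 0 to 47 and 2 to 69 counts a library.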

Other observations

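Of 18 other clade A serpins, 4 passed the filter on low counts, 5 had 0 counts in all libraries, and 0 were called with MCC950 against saline. For MCC950 against young, 2 of the 4 were higher, *Serpina3n* (log2 fold change 1.25, edgeR adjusted p = 0.0156) and *Agt* (0.90, adjusted p = 0.0283), beside 21.8% of all genes. *Serpina3n*, an acute-phase inhibitor of granzyme B, was at 0.0729 to 0.398 CPM in young and 0.256 to 1.23 CPM in saline libraries and rose with age (log2 fold change 1.95, edgeR adjusted p = 0.00118), with a difference of -0.70 for MCC950 against saline (adjusted p = 0.121). *Agt*, which encodes angiotensinogen, differed by 0.70 with MCC950 (adjusted p = 0.0989), from 3.96 to 11.7 CPM in saline to 5.13 to 18.8 CPM in MCC950 libraries.

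Of 13 tested serpins of other clades, 6 were lower and 1 higher with age, where 12.4% of all genes were lower, and 0 were called with MCC950 against saline. *Serpini1* (neuroserpin) fell by 1.29 on the log2 scale with age (adjusted p = 2.8e-05), *Serpinh1*, the collagen chaperone of the endoplasmic reticulum, fell by 0.93 (adjusted p = 0.000237), and *Serpinb9*, the granzyme B inhibitor of lymphocytes, fell by 0.62 (adjusted p = 0.00252).

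Of 9 tested neutrophil and monocyte markers, 2 were higher with age, where 12.2% of all genes were higher. With MCC950 against saline 0 were called. *Lyz2* was at 140 to 654 CPM in young and 591 to 1500 CPM in saline libraries (log2 fold change 1.06, adjusted p = 0.0333), and *Ly6g*, which marks neutrophils, had at most 4 counts in a library.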
